A study of Mus musculus with 7 samples.

Results

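The miR-23, miR-24 and miR-27 family of the mouse wound edge was followed through the 5 real-time PCR assays that measure it, those for miR-23a, miR-23b, miR-24, miR-27a and miR-27b, among 306 mature miRNAs on the plate. The members were chosen by assay name, with earlier results of these data known. The tissue was wound edge of C57Bl6 mice, taken 3 days after wounding. The 4 non-ischemic samples were the controls. The 3 ischemic samples came from wounds made under the bipedicle flap model, in which a length of skin is cut free along its sides and fed with blood through both ends alone. Neither sex nor age of the mice is given in the sources used here, and nothing says whether each sample came from a separate animal, so the p-values measure the spread between these samples only.

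These miRNAs are made from a pair of duplicated clusters, each read as 1 primary transcript that is cut into separate hairpins. The family is abundant in endothelial cells, where miR-23 and miR-27 promote the sprouting of vessels by repressing the inhibitors Sprouty2 and Sema6A. miR-24 restrains the vessel factors GATA2 and PAK4 in ischemic mouse heart and also acts in the differentiation of keratinocytes, and miR-27 restrains the adipocyte regulator PPARG.

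The mature sequences, from RefSeq on the mouse build GRCm38.p6 and found for 4 of the 5 members, show how alike the members are. Each is written 5′ to 3′ with its seed, bases 2 to 8, in capitals.
miR-23a: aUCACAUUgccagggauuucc
miR-27a: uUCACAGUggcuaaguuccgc
miR-27b: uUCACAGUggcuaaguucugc
miR-24: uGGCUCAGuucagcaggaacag
The paralogues miR-27a and miR-27b shared their seed and 20 of 21 bases, and differed by C19U, counted from the 5′ end of miR-27a. No other miRNA in that table had their seed. The seeds of miR-23a, miR-24 and miR-27 differ from each other.

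The chromosome 8 cluster of Mir23a, Mir27a and Mir24-2 spanned 404 bp (chr8:84208518-84208921, plus strand), and the gene table placed no protein-coding gene across it. The chromosome 13 cluster of Mir23b, Mir27b and Mir24-1 spanned 792 bp (chr13:63300484-63301275, plus strand) and lay within the bounds of Aopep, a gene for an aminopeptidase (chr13:62964893-63326096). miR-24 is encoded in both: its mature sequence, in capitals below, stands unchanged in 2 hairpins of different length.
Mir24-1 hairpin: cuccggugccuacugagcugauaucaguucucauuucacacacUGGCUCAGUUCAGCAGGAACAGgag
Mir24-2 hairpin: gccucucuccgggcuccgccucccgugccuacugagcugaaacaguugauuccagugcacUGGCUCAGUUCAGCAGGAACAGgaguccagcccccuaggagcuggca
A miR-24 level can therefore hold RNA from both loci, whereas miR-23a and miR-27a are encoded on chromosome 8 and miR-23b and miR-27b on chromosome 13. Whether the assays keep such paralogues apart was not tested. The opposite arms of the hairpins differ between the loci, and are shown again with the seed in capitals.
miR-24-1-5p: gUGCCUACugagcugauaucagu
miR-24-2-5p: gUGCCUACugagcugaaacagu
RefSeq lists miR-189 as an older name of Mir24-1, and the plate held an assay of that name. It gave no product in any of the 7 samples.

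The 5 assays fell into 3 that were read in every sample and 2 that were not. The threshold cycle (Ct) is the PCR cycle at which product crosses a set line, so a lower Ct means more RNA. A Ct below 35 was taken as detection, and the deposited value of 40 as no product. miR-24, miR-27a and miR-27b were detected in 7 of 7 samples, while miR-23a and miR-23b were detected in 0 of 7.

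miR-24 was the most abundant by Ct. Its Ct was 27.5, 27.5, 27.3 and 27.1 in non-ischemic samples 1 to 4 and 27.8, 27.4 and 27.4 in ischemic samples 1 to 3. It ranked 4th by mean Ct among the 103 miRNAs detected in at least 3 samples, which are the miRNAs tested below. miR-27a had a Ct of 31.0, 30.8, 30.5 and 30.7 in the non-ischemic samples and 30.9, 30.5 and 31.0 in the ischemic samples. For both miRNAs the ischemic values overlapped the non-ischemic ones.

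miR-27b ran later and spread more widely. Its Ct was 31.7, 32.8, 33.2 and 32.0 in non-ischemic samples 1 to 4 and 32.2, 32.1 and 34.0 in ischemic samples 1 to 3. Ischemic sample 3 and non-ischemic samples 2 and 3 were the low ones, so that low and high samples stood in both groups. The order miR-24, miR-27a, miR-27b held in all 7 samples. Neighbours in that order were at least 3.15 and 0.76 cycles apart, although assays may differ in efficiency, so the order is one of assay readings.

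**Figure D1:**
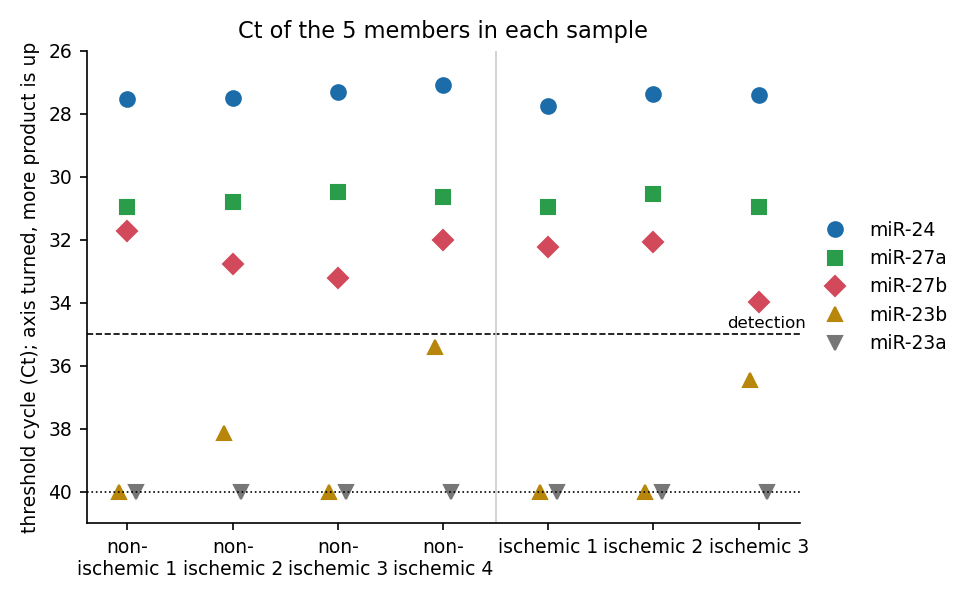
Ct of each member (vertical axis, turned so that more product is up) in the 4 non-ischemic and 3 ischemic samples, with the detection line at 35 and no product at 40. miR-24 and miR-27a form level rows, miR-27b runs between 31.7 and 34.0, and miR-23a sits at 40 throughout.

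Neither miR-23 paralogue reached detection, though each is encoded beside a miR-27 that did. miR-23a had a Ct of 40 in all 7 samples. Its neighbour miR-27a came up 9.03 to 9.50 cycles before that limit. miR-23b gave late product in 3 samples, with a Ct of 38.1 and 35.4 in non-ischemic samples 2 and 4 and of 36.4 in ischemic sample 3, and no product in the other 4. Product of miR-23b was thus seen in 2 of 4 non-ischemic and 1 of 3 ischemic samples. Whether these readings reflect the tissue or the assays was not tested.

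Folds for both miR-23 assays nonetheless stand in the authors' deposited table of ischemic over non-ischemic means. For miR-23a the authors' deposited table gives 0.916. With a Ct of 40 everywhere, that fold holds nothing but the 5S rRNA readings used to normalise: 5S rRNA alone gives 0.916. In the authors' deposited table all 103 miRNAs with no product in any sample carry this same fold, within 1e-06. For miR-23b the authors' deposited table gives 0.522, which rests mainly on the late readings of non-ischemic sample 4 and ischemic sample 3. On the same linear scale the fold was 2.46, the other direction, without non-ischemic sample 4, and 0.111 without ischemic sample 3. No difference between groups could be measured for miR-23a or miR-23b, and neither entered the test.

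Mean levels of miR-24, miR-27a and miR-27b were slightly lower in ischemic wounds, by less than the spread between samples. Levels are log2 values against 5S rRNA, higher meaning more, if each cycle doubles the product. miR-24 was at -12.88, -13.03, -12.68 and -12.24 in non-ischemic samples 1 to 4 and at -13.19, -12.93 and -12.84 in ischemic samples 1 to 3. The groups overlapped, with ischemic sample 1 the lowest of all 7. The difference was -0.28 ± 0.35 (SE, log2, n = 4 and 3), with an adjusted p of 0.772 in limma.

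For miR-27a the levels were -16.31, -16.34, -15.87 and -15.82 in the non-ischemic and -16.38, -16.08 and -16.40 in the ischemic samples. Ischemic sample 2 lay among the non-ischemic values, and ischemic samples 1 and 3 just under their lowest. The difference was -0.20 ± 0.34 (SE, log2; limma adjusted p = 0.812). The 95% interval ran from 0.508-fold to 1.49-fold of the non-ischemic level for miR-27a and from 0.472-fold to 1.44-fold for miR-24. Changes within these bounds were not excluded by these samples.

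For miR-27b the levels were -17.08, -18.31, -18.59 and -17.17 in the non-ischemic and -17.65, -17.61 and -19.42 in the ischemic samples. Ischemic samples 1 and 2 lay inside the non-ischemic range and ischemic sample 3 below it. The difference was -0.44 ± 0.60 (SE, log2; limma adjusted p = 0.774), with an interval from 0.286-fold to 1.90-fold. It turned to 0.15 without ischemic sample 3.

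Of the 3 tested members, 0 passed an adjusted p of 0.05 in limma, as did 0 of all 103 tested miRNAs (0%). At an unadjusted p under 0.05 the counts were 0 of 3 members and 19 of 103 miRNAs (18.4%). The groups did not overlap for 0 of 3 members and for 18 of 103 miRNAs (17.5%). A lower ischemic mean was found in 3 of 3 members, against 76.7% of all tested miRNAs. The median difference was -0.28 over the members and -0.35 over all 103. Relative to that shift miR-24 and miR-27a were 0.07 and 0.15 higher and miR-27b 0.09 lower. After global mean normalisation, which removes most of the shift, the differences of miR-24, miR-27a and miR-27b were 0.06, 0.14 and -0.11.

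**Figure D2:**
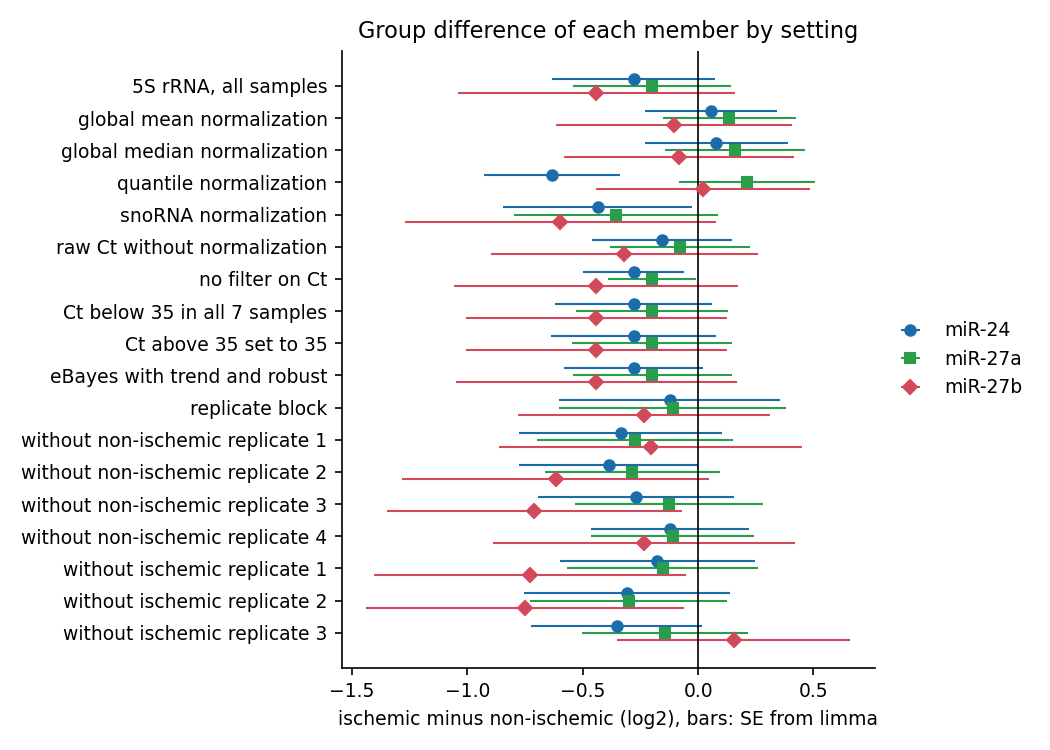
Difference of miR-24, miR-27a and miR-27b, ischemic minus non-ischemic (horizontal axis, log2, bars are the SE from limma), under each normalisation, filter and left-out sample. Against 5S rRNA with all samples the points lie at -0.28, -0.20 and -0.44, and several normalisations move them across 0.

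Ischemic sample 3 differed from the rest over the 76 miRNAs detected in all 7 samples. Its correlations with the other samples were 0.756 to 0.830, against 0.908 to 0.977 among the other 6. The members parted in ischemic sample 3. From the non-ischemic mean, miR-24 deviated by -0.13, miR-27a by -0.31 and miR-27b by -1.63 in that sample. The median over the tested miRNAs was -0.53, and their median size of deviation was 1.005 log2 units. Only 9 of the 103 tested miRNAs deviated less than miR-24, 22 less than miR-27a, and 80 less than miR-27b. In ischemic samples 1 and 2, miR-27b lay 0.13 and 0.18 above the non-ischemic mean, miR-24 lay at -0.48 and -0.22, and miR-27a at -0.29 and 0.01.

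Some markers of other cells also stood apart in ischemic sample 3. The summed level of the leukocyte miRNAs, 4 of 4 of them tested, ran from -8.33 to -7.69 log2 units in non-ischemic samples, and read -8.39, -7.81 and -12.61 in ischemic samples 1 to 3. That sum is almost wholly the myeloid miR-223, the most abundant of the 4 by Ct. The pan-leukocyte miR-142-3p was at -15.41, -16.72, -17.14 and -15.40 in non-ischemic samples 1 to 4 and at -15.58, -15.83 and -20.49 in ischemic samples 1 to 3. Like miR-27b, it was lowest in ischemic sample 3 and next lowest in non-ischemic samples 3 and 2. The other leukocyte miRNAs did not share that order. miR-142-5p, its opposite arm, was also lowest in ischemic sample 3 and next lowest in non-ischemic sample 3, at -18.93. In non-ischemic sample 2 it was at -17.61, above the -17.97 of non-ischemic sample 1. For miR-223 the lowest value was -12.76 in ischemic sample 3, and the next was -8.40 in ischemic sample 1. The lymphocyte miR-150 was at -16.04 in ischemic sample 3, inside its non-ischemic range of -16.34 to -15.90.

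The summed level of the muscle miRNAs, also 4 of 4, ran from -12.62 to -12.20 in non-ischemic samples and read -12.02, -11.27 and -10.16 in ischemic samples 1 to 3. That of the 2 erythroid miRNAs, both tested, ran from -21.63 to -19.13 in non-ischemic samples and was higher in each ischemic sample, at -17.01, -18.10 and -17.57. That of the endothelial miR-126 and its opposite arm miR-126*, 2 of 2, ran from -14.89 to -14.28 in non-ischemic samples and read -15.03, -14.48 and -15.25 in the ischemic ones. The summed level of the keratinocyte miRNAs, 5 of 7 tested, ran from -15.17 to -14.27 in non-ischemic samples. It read -15.27, -15.71 and -15.16 in ischemic samples 1 to 3. Ischemic sample 3 thus lay just inside the lower end of the non-ischemic range. All 5 had a lower ischemic mean, against 76.7% of all tested miRNAs. An unadjusted limma p under 0.05 was held by 2 of the 5, against 18.4% of all tested miRNAs. In the muscle list 4 of 4 had a higher ischemic mean and 3 of 4 held such a p. In the erythroid list 2 of 2 were higher and 1 of 2 held it. The leukocyte, endothelial and smooth muscle lists had 4 of 4, 2 of 2 and 1 of 1 lower, and 0 with such a p. The smooth muscle list, 1 of 2 tested, ran from -20.04 to -19.27 in non-ischemic and from -19.98 to -19.05 in ischemic samples. No miRNA of these 6 lists was without product throughout. The part of these cells in the levels of miR-27b was not tested. In bulk tissue, fewer cells of a type and less RNA per cell cannot be told apart.

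**Figure D3:**
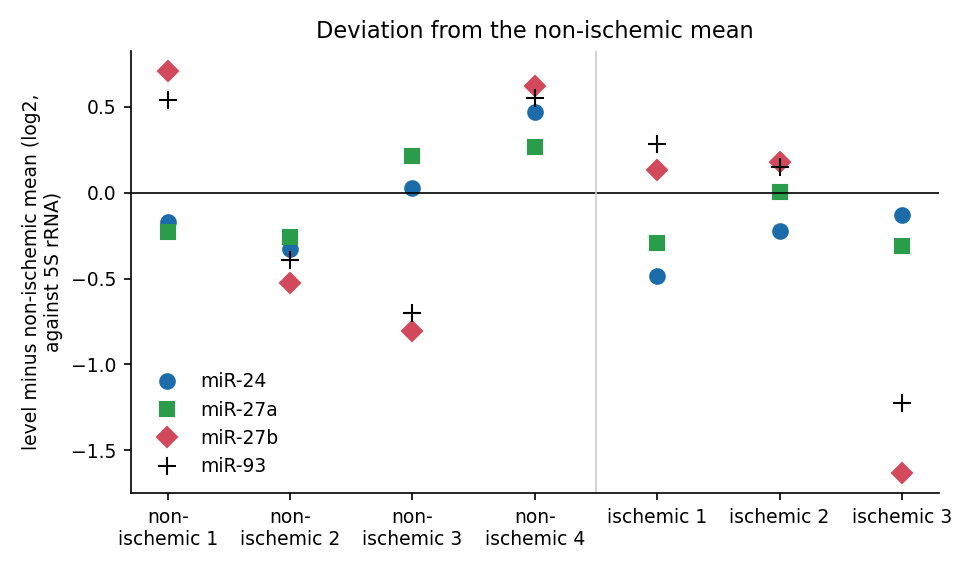
Level of miR-24, miR-27a, miR-27b and miR-93 minus its own non-ischemic mean (vertical axis, log2 against 5S rRNA) in each sample. miR-24 and miR-27a stay within 0.48 of 0, while miR-27b falls to -0.80 in non-ischemic sample 3 and to -1.63 in ischemic sample 3, and miR-93 goes with it.

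The paralogues miR-27a and miR-27b did not keep a fixed ratio across the samples, in the ischemic group mainly through ischemic sample 3. Within a sample the normaliser cancels, so the level of miR-27b minus that of miR-27a needs no reference RNA. It was -0.76, -1.97, -2.72 and -1.35 log2 units in non-ischemic samples 1 to 4, and -1.28, -1.53 and -3.02 in ischemic samples 1 to 3. In linear terms miR-27b read at 0.589 of miR-27a in non-ischemic sample 1 and at 0.123 in ischemic sample 3, a 4.78-fold range. There is 1 reading per assay and sample, and the part of measurement error in this range was not tested. Nor was it tested whether either assay also reads the other paralogue. The group means were -1.70 ± 0.84 (SD, n = 4) and -1.94 ± 0.94 (SD, n = 3), which differed by -0.24 (two-sided exact permutation p = 0.714, where 35 splits allow 0.0286 at the least). Without ischemic sample 3 the difference was 0.30, and without non-ischemic sample 1 it was 0.07. Of the 4 pairs planned this was the only one compared, since the other 3 contain miR-23a or miR-23b.

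miR-24 kept close to miR-27a and not to miR-27b. Its level stood 3.44, 3.31, 3.19 and 3.58 log2 units above that of miR-27a in non-ischemic samples 1 to 4, and 3.18, 3.15 and 3.56 above it in ischemic samples 1 to 3. That is a 1.35-fold range over all 7 samples. Above miR-27b it stood by 4.20 to 6.58, a 5.21-fold range. Both comparisons were chosen after the values were seen and are given without a test.

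**Figure D4:**
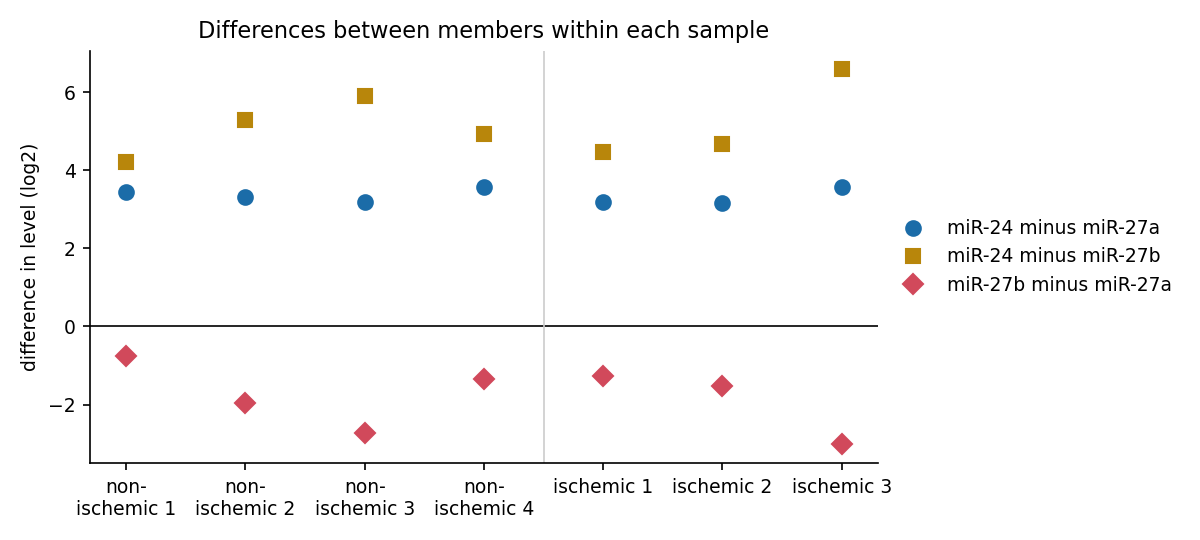
Difference in level between pairs of members within each sample (vertical axis, log2). The difference of miR-24 and miR-27a stays between 3.15 and 3.58, whereas miR-27b minus miR-27a runs from -0.76 to -3.02.

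The same division appears in the spread of each miRNA over the 7 samples. The spread is no separate support for that division, since miRNAs that vary little cannot drift far from each other. The SD was 0.25 log2 units for miR-27a, the lowest of all 103 tested miRNAs, 0.30 for miR-24, the 4th lowest, and 0.84 for miR-27b, the 70th, where the median was 0.68. A mean Ct within 1 cycle of its own was found for 34 other tested miRNAs in the case of miR-27a, with a median SD of 0.61, and 0 of them had a lower SD. For miR-27b there were 29, with a median SD of 0.69, and 19 had a lower SD. The place of miR-27a was also the lowest on raw Ct, the third lowest after global mean and global median normalisation, the 4th without ischemic sample 3 and the 15th lowest after snoRNA normalisation. miR-24 took the 2nd, 1st, 2nd, 16th and 9th place under these settings. miR-27b stayed between the 56th and the 70th.

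**Figure D5:**
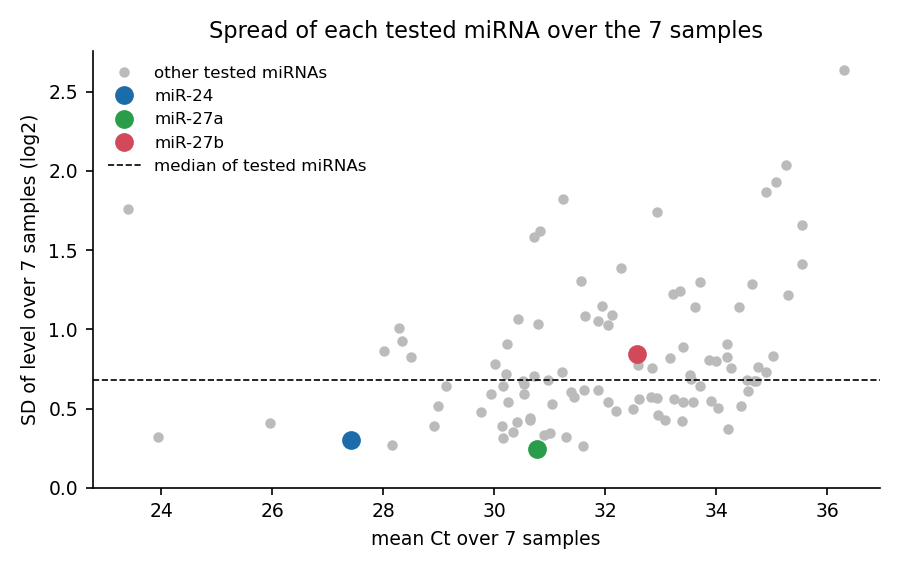
SD of the level over all 7 samples (vertical axis, log2) against mean Ct (horizontal axis) for the 103 tested miRNAs. miR-27a, at 0.25, is the lowest point, miR-24 lies at 0.30 and miR-27b at 0.84, above the dashed median of 0.68.

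The miRNAs with the most similar course over the samples were ranked by the root mean square difference of levels, each centred on its own mean, a measure in which the normaliser again cancels. Over all 5253 pairs of tested miRNAs its median was 0.91 log2 units. miR-24 was nearest to miR-26a, a miRNA that acts on BMP and SMAD signalling in vessels (0.13), then to miR-27a (0.17) and to miR-30b (0.23). miR-27a was nearest to miR-24, then to miR-26a (0.20) and to miR-191 (0.24). Of all 5253 pairs, 0.0381% were closer than miR-24 and miR-27a. That share depends on the low spread of both, since miRNAs that vary little stay close whatever their course. It is therefore no measure of a shared course.

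miR-27b had other neighbours. It was nearest to miR-93, which belongs to the miR-106b-25 cluster (0.17), then to miR-140, best known from cartilage (0.29), and to miR-374-5p (0.30). Its paralogue miR-27a came 35th of 102, at 0.76, and miR-24 41st, at 0.78. The levels of miR-93 were -15.27, -16.19, -16.51 and -15.25 in non-ischemic samples 1 to 4, and -15.52, -15.66 and -17.03 in ischemic samples 1 to 3. As with miR-27b, its lowest values were in ischemic sample 3 and in non-ischemic samples 3 and 2. Without ischemic sample 3, miR-93 remained nearest to miR-27b (0.12), followed by the leukocyte miRNA miR-142-3p (0.19), miR-27a was the 4th nearest of 102 to miR-24 (0.16), and miR-24 was the 2nd nearest to miR-27a. All these miRNAs share the same 7 samples and runs, so likeness is a description.

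Other miRNAs linked to vessels held no call after adjustment, and nor did any other tested miRNA. Of 24 on the list, 15 were tested. The ischemic mean was higher in 3 and lower in 12, against 76.7% lower over all tested miRNAs. Their median difference was -0.30, against -0.35 over all tested miRNAs. In limma 0 of the 15 passed an adjusted p of 0.05, as did 0 of all 103. An unadjusted p under 0.05 was held by 1 of the 15, against 18.4% of all 103. That was miR-378, which promotes vessel growth, with a difference of 1.27 ± 0.48 (SE, log2; limma adjusted p = 0.219). Its groups did not overlap, as for 17.5% of all tested miRNAs. miR-18a and miR-17-5p, of the miR-17-92 cluster, followed at -1.98 ± 1.15 and -0.97 ± 0.57 (SE, log2; limma adjusted p = 0.422 for each), with overlapping groups. The muscle miRNAs, 4 of 4, also had a higher ischemic mean, as miR-378 did. Whether the difference of miR-378 has to do with vessels was not tested.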

How the data were processed

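Real-time PCR of mature miRNAs was run on 7 wound edge samples, with 500 ng of RNA reverse transcribed per sample, per the labels. Groups follow the sample titles. The authors deposited raw Ct, used here as a score, and, per the file headers, a delta Ct. Subtracting each assay's Ct from that of 5S rRNA gave the latter for 315 of 316 assays within 0.0001 cycles, so these deposited values are log2 levels. The authors also deposited the linear ratio to 5S rRNA and a table of group means and folds. The Ct software is not given in the sources used. Of the raw columns, 7 repeat 5S rRNA and were left out.

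Species prefixes and leading zeros were dropped from assay names. The main comparison used limma (version 3.58.1, R version 4.3.3), a moderated linear model with two-sided p-values adjusted by Benjamini-Hochberg, over 103 miRNAs that had at least 3 samples below a Ct of 35. The Ct of 5S rRNA was 14.6 ± 0.15 (SD, n = 4) in non-ischemic and 14.5 ± 0.062 (SD, n = 3) in ischemic samples (two-sided exact permutation p = 0.257). Detected miRNAs per sample ranged from 91 to 106. A Ct has no count of molecules behind it, so precision comes from the number of samples. The fit was run on simulated data with known shifts, in which samples were drawn independently with the same spread in both groups. An outlying sample such as ischemic sample 3 was not simulated, so that run cannot speak to its effect. Named miRNAs are the members, the 3 most alike to each, and the 3 of the vessel list with the smallest p. miR-142-3p, miR-142-5p, miR-150, miR-189 and miR-223 were added after their values were seen, and miR-126 and miR-126* stand as the endothelial list. Members and lists were chosen with earlier results of these data known. Alternatives were other normalisations, filters, treatment of late Ct, a variance trend, linear values, the replicate number as a block and each sample left out; those for the spread, the likeness and the miR-23b fold were chosen after seeing the data.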

Additional observations from a re-analysis of the deposited data

How the results depend on the processing

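No member passed an adjusted p of 0.05 in limma under any alternative fitted with it (adjusted p from 0.335 to 0.981 over the 3 members; linear values had no test), but directions moved. miR-24 turned to 0.056 and 0.080 log2 units after global mean and global median normalisation. miR-27a turned to 0.14, 0.16 and 0.21 after global mean, global median and quantile normalisation, and miR-27b to 0.021 after quantile normalisation. miR-24 was at -0.63 after quantile normalisation. These alternatives moved the median of all tested miRNAs from -0.35 to -0.02, 0.00 and 0.03. With each sample left out, the difference ranged from -0.39 to -0.12 for miR-24, from -0.30 to -0.11 for miR-27a and from -0.75 to 0.15 for miR-27b, and the difference of miR-27b minus miR-27a from -0.58 to 0.30. The log2 fold of miR-23b on the linear scale ran from -3.17 to 1.30, the last without non-ischemic replicate 4. Over all tested miRNAs, 1 was called after global median and 1 after quantile normalisation, and from 0 to 8 with a sample left out, the 8 without ischemic replicate 3. The count at an unadjusted p under 0.05 ran from 10 to 21 with a sample left out and was 7 with the replicate number as a block.

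For samples of the same number, r across the tested miRNAs was -0.08, -0.30 and -0.11 for numbers 1 to 3. Levels were centred within each group, so ischemic sample 3 weighs on all these values. Non-ischemic sample 4, for one, had r of 0.41, 0.28 and -0.43 with ischemic samples 1 to 3. Such values cannot decide pairing, and the number is not known to pair the samples. With the replicate block the differences were -0.12, -0.11 and -0.24 for miR-24, miR-27a and miR-27b, and -0.12 for miR-27b minus miR-27a (exact sign-flip p = 0.75, where 3 pairs allow 0.25 at the least). A late Ct, as for miR-23b, tends to be less precise, though with 1 reading per assay and sample precision was not measured. miR-27b in ischemic sample 3, at a Ct of 34.0, was late but detected. The cause of these changes was not tested.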
